A study of Drosophila melanogaster with 30 samples.

Results

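The central nervous system (CNS) of Drosophila melanogaster males that lack normal fru P1 function was compared with that of wild-type males on 6 of the 30 arrays of the series, all at 48 h after puparium formation. Each array held 2 labelled samples, and replicates 1 to 6 are the 6 arrays titled as fru P1 CNS. On replicates 1 to 3, males of genotype w; fru-w12/fru-ChaM5 were labelled with Cy5 and males of the strain w; Berlin with Cy3. On replicates 4 to 6, fru-440/fru-P14 males carried Cy3 and Canton S males carried Cy5. Each RNA sample pooled about 20 dissected brains and ventral nerve cords. The tests also drew on CNS and brain arrays of other experiments of the series for the variance of each probe. These compared Canton S females and males at 48 h, or used the EcR-A RNAi genotype fru P1-GAL4 with uas-EcRA RNAi at 0 h and in adults. A probe was kept where at least 5 of the 6 arrays had a value, which left 7461 of 15744 probes (47.4%) after control spots were removed. The allele pair, the control strain, the slide set and the dye orientation all change together between replicates 3 and 4, so they cannot be told apart within these 6 arrays. The probes carry plate positions as names, and the sources used here do not pair them with genes. The fru gene itself and markers of neurons, glia or other tissues could therefore not be looked up, and the labels were not checked by gene.

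The fruitless gene encodes zinc-finger transcription factors with a BTB domain. Transcripts from its P1 promoter are spliced differently in the sexes, and in males they encode the FRUM proteins, which are made in a minority of neurons. FRUM is best known for building the neural circuits of male courtship, and the mid-pupal stage is a time when adult circuits are assembled. The comparison asked which CNS transcripts depend on fru P1 at that stage. In whole CNS tissue a change in the number of cells and a change in RNA per cell cannot be told apart.

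The values are deposited log2 ratios between the 2 channels of an array, where 1 unit is a 2-fold difference. Between 6228 and 10598 probes had a value on an array, with replicate 6 the sparsest. Replicate 6 was also absent for 20.7% of the probes kept, against 3.75% for replicate 1 and less for the others. Its scan label names a second wash. The SD across kept probes ran from 0.41 on replicate 6 to 0.582 on replicate 4. The long tail of the values lay on opposite sides in the 2 allele pairs. On replicate 1, 271 probes stood below -1 and 46 above 1, and on replicate 4, 411 stood above 1 and 90 below -1.

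Arrays of 1 allele pair resembled each other, and arrays of different pairs ran against each other. Within a pair Pearson's r across probes was between 0.26 and 0.74. Replicates 2 and 3 were the closest (r = 0.74), followed by replicates 4 and 5 (r = 0.68), whereas replicate 6 reached 0.29 and 0.26 with its partners. All 9 correlations between the pairs were below 0, from -0.58 (replicates 1 and 4) to -0.06 (replicates 3 and 6). The 4 arrays that compared Canton S females and males in the same tissue at the same time gave a similar split. A fru array and a sex array of the same dye orientation had r between 0.00 and 0.46, and those of opposite orientation between -0.52 and -0.24. These are descriptions across probes, which share tissue, labelling and array design and are not independent replicates.

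**Figure D1:**
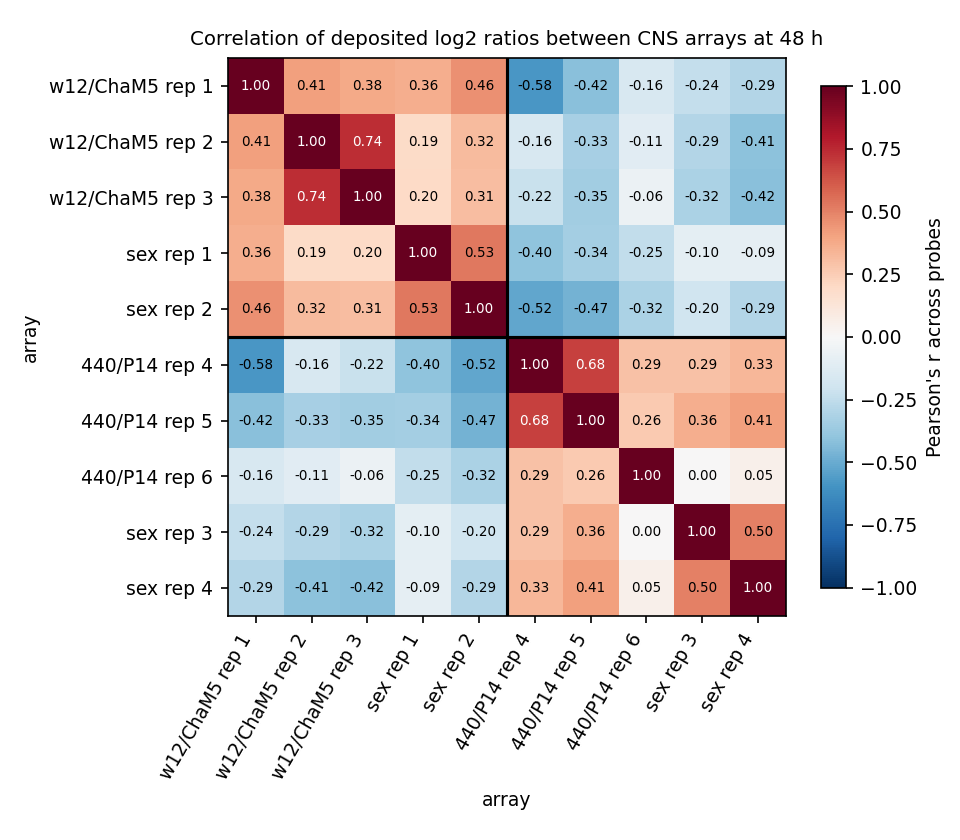
Pearson's r across probes between each of the 6 fru P1 CNS arrays and the 4 sex arrays of the CNS at 48 h, ordered so that arrays of 1 dye orientation stand together and black lines part the orientations. The 9 values between the allele pairs run from -0.58 to -0.06, and those within a pair from 0.26 to 0.74.

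The labels do not say which sample a positive ratio favours, so signs throughout are those deposited. If the ratios were Cy5 over Cy3, the 2 allele pairs would have opposite senses; if they had been turned to 1 sense, the pairs would share it. Whole pupae of the same 2 allele pairs were measured on 8 arrays, in which each pair held both dye orientations. Probes that passed the whole-body test of a pair and lay beyond 1 log2 unit with 1 sign on each of its arrays were therefore read in the CNS. For fru-w12/fru-ChaM5, 13 of 18 such probes had the like sign in the CNS (72.2%, 95% exact binomial interval 46.5% to 90.3%). For fru-440/fru-P14 it was 13 of 17 (76.5%, 50.1% to 93.2%). The intervals cover counting error only and treat probes as independent, which probes read on the same 3 arrays are not. Read in the CNS of the other allele pair, the same probes gave 11 of 18 (61.1%) and 10 of 17 (58.8%). Whether the own pair ran closer than the other was not tested. Over all 4592 probes tested in both tissues the shares were 48.3% and 55.2% in the own pair and 46.8% and 50.7% in the other. All 6 and all 8 probes that were positive in the whole body were positive in the CNS, whereas 7 of 12 and 5 of 9 of the negative ones were negative there. For fru-w12/fru-ChaM5 the CNS values were small, with medians of 0.14 for the positive and -0.07 for the negative probes. For fru-440/fru-P14 these medians were 1.03 and -0.36. The median SE of a pair mean over all tested CNS probes was 0.164 and 0.173, so many of the signs rest on values near 0. Beyond 2 log2 units on every whole-body array, 2 of 2 and 4 of 4 probes had the like sign. Among the 100 largest whole-body effects the shares were 46% and 61%, and the first of these lies below the share of all probes.

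The probes with the largest whole-body ratio of each sign ran alike in some cases and not in others. DAC034F02 had whole-body values of 3.96, 5.52, 4.65 and 4.47 for fru-w12/fru-ChaM5, and 1.02, 0.82 and 1.60 on CNS replicates 1 to 3. With fru-440/fru-P14 it was negative in both tissues, at -0.58, -0.37, -1.26 and -0.70 in the whole body and -0.86, -1.01 and -0.20 in the CNS. So this probe separated the allele pairs in the same sense in both tissues. DAC024G07 was negative in fru-w12/fru-ChaM5 whole pupae (-2.50, -2.67, -3.41 and -3.79) and negative on all 3 CNS arrays of that genotype (-0.47, -1.09 and -0.71). DAC032I05 had the highest ratio of fru-440/fru-P14 whole pupae, with 3.63, 3.67, 2.48 and 2.60, and had 1.01, 1.01 and 0.34 on CNS replicates 4 to 6. The fru-w12/fru-ChaM5 pair of DAC032I05 was negative in the whole body (-0.53, -0.81, -0.63 and -0.88) but positive in the CNS (1.08, 0.66 and 1.05), so its tissues did not run alike there. DAC037M01, the most negative of this group for fru-440/fru-P14 (-1.43, -1.55, -2.26 and -2.04), showed no like shift in the CNS (0.13, 0.32 and -0.08). The ratios are read below as turned to 1 sense in both pairs, an assumption that these signs bear on but that the labels do not settle.

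**Figure D2:**
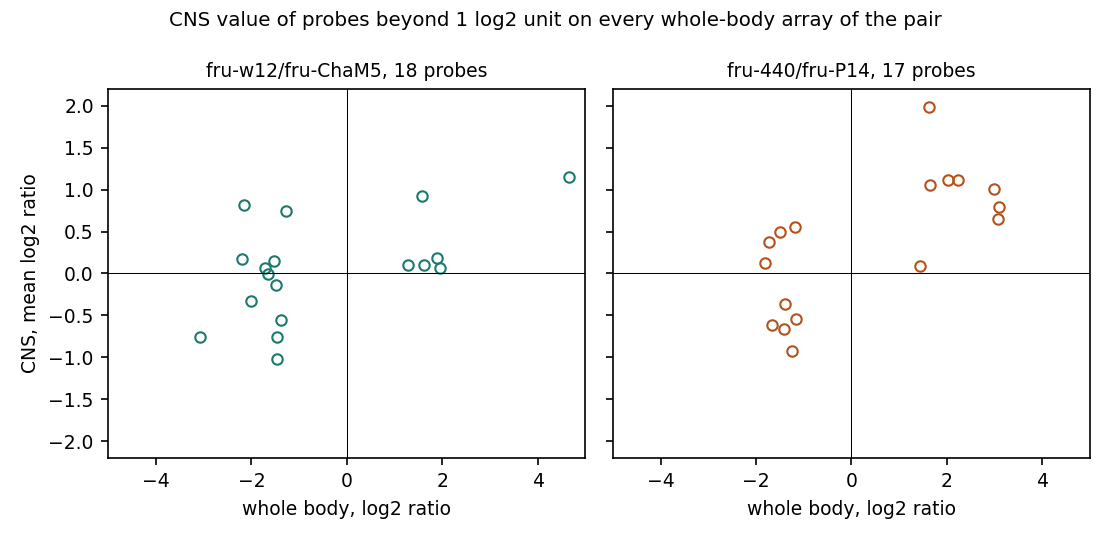
Mean log2 ratio in the CNS (vertical, 3 arrays of the pair) against the whole-body log2 ratio of the same allele pair (horizontal, 4 arrays) for probes beyond 1 log2 unit on every whole-body array. In both panels all points right of 0 lie above 0, whereas points left of 0 fall on both sides.

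The mean over the allele pairs passed the test for 64 of 7461 probes (0.858%), of which 37 were positive and 27 negative (limma, Benjamini-Hochberg adjusted p under 0.05). The called ratios were moderate: their median size was 0.80 log2 units, and 10 positive and 3 negative calls exceeded 1 unit. Both pair means had the same sign for 57 of the 64 (89.1%), against 31.9% of all tested probes, a description since the test itself favours such probes. On 48 of them every array with a value had 1 sign. The variance of each probe was taken over other CNS and brain arrays of the series as well. In the fit of the 6 fru P1 CNS arrays alone 36 probes passed, and 32 of the 64 calls were kept. The number of calls also moved with single arrays. Over the same 7461 probes it was 17 without replicate 2 or 3, 15 without replicate 4 and 32 without replicate 5, but 107 without replicate 1 and 100 without replicate 6.

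The probe with the highest mean was DAC024C11. It stood at 1.08, 1.50 and 1.65 on replicates 1 to 3 and at 1.75 and 2.32 on replicates 4 and 5, with no value on replicate 6. All 5 values were positive and the 2 pairs did not overlap, with the fru-440/fru-P14 arrays higher. Its mean was 1.72 ± 0.124 (SE, n = 5 arrays), which is 3.3-fold (limma adjusted p = 6.6e-05). DAC030F08 had 1.35, 0.95 and 0.87 in the first pair and 2.61, 2.33 and 0.26 in the second. Replicate 6 was the lowest of the 6 values and the other 2 arrays of its pair the highest. The mean of DAC030F08 was 1.39 ± 0.232 (SE, n = 6; limma adjusted p = 0.0121), a call lost without replicate 2, 3, 4 or 5 and in the fit of the 6 arrays alone, with adjusted p up to 0.0695.

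On the negative side DAC037L17 had -0.91, -1.07 and -1.51 on replicates 1 to 3 and -2.15 and -1.67 on replicates 4 and 5. The fru-440/fru-P14 arrays lay lower than all 3 of the other pair. Its mean was -1.54 ± 0.157 (SE, n = 5; limma adjusted p = 0.00274). DAC019N08 had -1.39 and -1.37 on replicates 2 and 3 and -0.87, -0.70 and -1.36 on replicates 4 to 6. Its values spanned less than 1 unit and its mean was -1.18 ± 0.118 (SE, n = 5; limma adjusted p = 0.00274). Whole fru-440/fru-P14 pupae were also negative for DAC019N08 (-0.58 ± 0.12, SE, n = 4; limma adjusted p = 0.0229), while the fru-w12/fru-ChaM5 pair gave -0.15 ± 0.12 (SE, n = 4; limma adjusted p = 0.377).

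**Figure D3:**
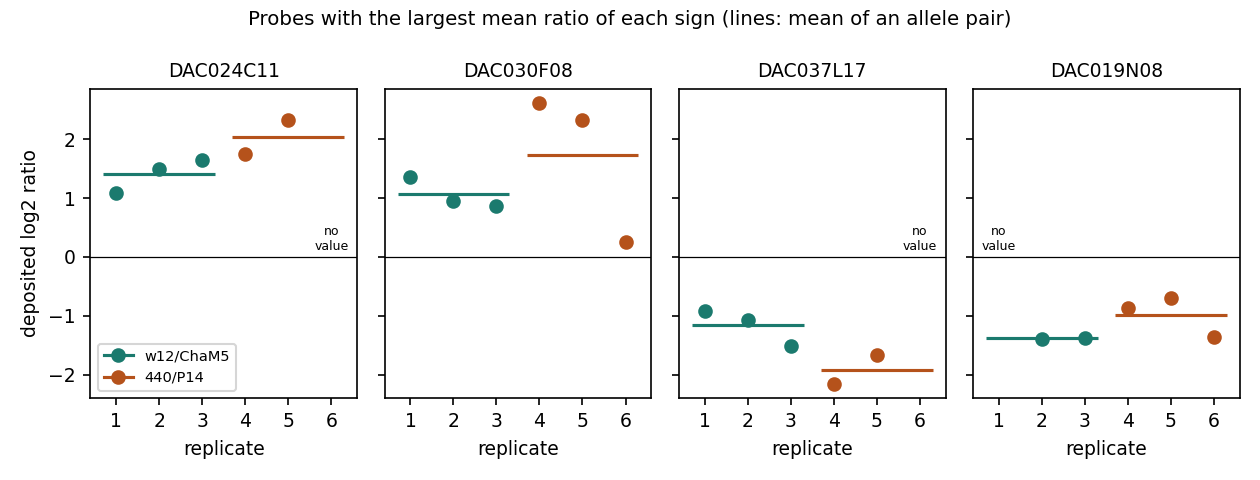
Deposited log2 ratio (vertical) of the 4 probes with the largest mean of each sign on replicates 1 to 6 (horizontal). Points are arrays, lines are the mean of an allele pair, and DAC030F08 on replicate 6 (0.26) is the point farthest from the other arrays of its pair.

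The 64 calls divide by what each allele pair contributed. Of them 20 were also called in each pair taken alone, with like sign, 13 for fru-w12/fru-ChaM5 only and 31 for fru-440/fru-P14 only. The 20 probes seen in both pairs had 1 sign on every array that measured them. The choice itself favours this: 100% of fru-w12/fru-ChaM5 calls and 98.8% of fru-440/fru-P14 calls had 1 sign within their pair. The mean ratios of the 20 ranged in size from 0.47 to 1.72, with a median of 0.82. For the 13 positive ones the median on replicates 1 to 5 lay between 0.78 and 1.05, and on replicate 6, which measured 7 of them, at 0.34. For the 7 negative ones the median by array ran from -1.16 on replicate 3 to -0.58 on replicate 5. Only 8 of the 20 had a value on all 6 arrays. These pair calls rest on each pair's own 3 arrays of 1 dye orientation, and 0 probes were called in both pairs with the shared dye term described below.

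The called probes were then read in the other experiments of the series. Of the 54 called probes tested for sex in the CNS, 35 had a ratio of the like sign (64.8%, against 48.1% of all 6524 probes tested in both), with a median size of 0.16 log2 units. Over those 6524 probes the fru mean and the sex ratio had Pearson's r = -0.12 and Spearman's rho = -0.03. For sex 0.536% of all probes passed. The only probe called in both, DAC039L21, was named after its values were seen. Its limma adjusted p was 0.0457 for the fru mean and 0.0466 for sex, both just under the threshold of 0.05. It had -0.55, -0.25 and 0.11 on replicates 1 to 3 and -0.93 and -1.32 on replicates 4 and 5 of the fru arrays, and -0.08, -0.30, -1.59 and -1.17 on the 4 sex arrays. In whole pupae 42 of the calls were tested, and 18 had the like sign for fru-w12/fru-ChaM5 (42.9%) and 23 for fru-440/fru-P14 (54.8%), near the 46.6% and 54.2% of all probes. Whatever their sign, 18 of the 42 passed the whole-body test of fru-w12/fru-ChaM5 and 10 that of fru-440/fru-P14, where 18.9% and 6.1% of all 4592 probes did. In the EcR-A RNAi experiments, where an ecdysone receptor isoform was targeted in fru P1 cells, 19 of 35 calls at 0 h (54.3%) and 17 of 35 in adults (48.6%) had the like sign, against 56.8% and 50.8% of all probes. DAC032I05, also named after its values were seen, was the only fru call to pass at 0 h, where 0.373% of all probes did (0.91 ± 0.142, SE; limma adjusted p = 0.0182), beside 0.86 ± 0.116 (SE, n = 6; limma adjusted p = 0.0047) in the fru comparison.

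Taken alone, each allele pair gave far more calls than the average did, but on 3 arrays of 1 dye orientation each. The fru-w12/fru-ChaM5 pair had 702 calls (9.41%), 268 positive and 434 negative, and 101 of the negative but 18 of the positive calls exceeded 1 log2 unit. DAC025F14 had the highest ratio, with 1.62, 2.20 and 2.49 on replicates 1 to 3. All 3 lay above its fru-440/fru-P14 values of 0.83, 0.24 and 0.36, and its pair mean was 2.10 ± 0.207 (SE, n = 3 arrays of the pair; limma adjusted p = 0.00108). DAC024C11, described above, was the second, at 1.41 ± 0.157 (SE; limma adjusted p = 0.00114). DAC003A12 was the most negative, at -1.80 and -2.19 on replicates 2 and 3, against -0.01, 0.02 and 0.15 in the other pair (pair mean -2.0 ± 0.166, SE; limma adjusted p = 0.00114). Its values lay far from 0 in 1 pair and near 0 in the other, and it also passed the test of the mean (limma adjusted p = 0.0047). DAC006P21 had -1.92, -1.85 and -1.98 and was positive on all 3 fru-440/fru-P14 arrays. With the shared dye term described below, its pair value was -0.92 and its call was lost (limma adjusted p = 0.454). Over the same probes the count of the pair was 284, 53 and 118 without replicate 1, 2 or 3.

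The fru-440/fru-P14 pair had 1202 calls (16.1%), 585 positive and 617 negative. Here the large ratios were mostly positive, 127 above 1 log2 unit against 15 below -1. The split by sign turned on scaling: with each array centred on its median 679 were positive and 426 negative, and with arrays also scaled to a common spread 332 and 157. DAC010H07 had 2.22 and 2.08 on replicates 4 and 5 and -0.63, 0.08 and 0.04 on replicates 1 to 3. Its pair mean was 2.15 ± 0.201 (SE, n = 2 arrays of the pair; limma adjusted p = 0.000344); its replicates 2 and 3 lay near 0 and replicate 1 below it. DAC029L08 had a higher pair mean, 2.94 ± 0.781 (SE, n = 2; limma adjusted p = 0.0325), from 3.70 and 2.19, but its other arrays scattered from -2.33 to 1.75 and its call was lost without replicate 4 or 5, in the fit of the 6 arrays alone, with arrays centred and scaled and with the shared dye term. DAC037L17 and DAC020O21 were the most negative. DAC020O21 had -0.45, -1.54 and -2.27 on replicates 4 to 6, a pair mean of -1.42 ± 0.302 (SE, n = 3; limma adjusted p = 0.0122), and the fru-w12/fru-ChaM5 arrays were negative too (-1.54, -0.47 and -0.59). The call of DAC020O21 was lost without replicate 5 or 6 (limma adjusted p up to 0.0668), and that of DAC037L17 in this pair without replicate 4 and with the shared dye term. Over the same probes the count of the pair was 36 without replicate 4 and 135 without replicate 5.

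The calls of the 2 pairs overlapped, mainly with opposite sign. Both pairs called 304 probes, which is 43.3% of the fru-w12/fru-ChaM5 calls and 25.3% of the fru-440/fru-P14 calls. Of these, 21 had like sign and 283 (93.1%) opposite sign, 175 of them negative in the fru-w12/fru-ChaM5 pair. Across all tested probes 31.9% had pair means of like sign, and the 2 pair means had Pearson's r = -0.42. Read as Cy5 over Cy3, the 304 probes would give 283 of like and 21 of opposite sign, and r would be 0.42. The test of the gap between the pairs, fru-w12/fru-ChaM5 minus fru-440/fru-P14, passed for 1940 probes (26%), 945 higher and 995 lower in the fru-w12/fru-ChaM5 pair. The 2 most negative gaps belonged to DAC041G05 (-1.80, -2.11 and -1.28 against 2.24, 1.42 and 0.94) and DAC006P21 (against 1.72, 1.14 and 1.09). Their gaps were -3.26 ± 0.409 and -3.23 ± 0.385 log2 units (SE, n = 6; limma adjusted p = 0.000552 and 0.000319). The 3 arrays of each pair lay on opposite sides of 0 for both probes. The 2 most positive gaps were those of DAC023H22 and DAC034F02, at 2.19 ± 0.219 and 1.84 ± 0.272 (SE, n = 6; limma adjusted p = 0.00014 and 0.000946). With each array centred 755 were higher and 1109 lower, and with arrays also scaled 683 and 1041. Over the same probes the count was 1258 without replicate 2 and 1012 without replicate 4. If the ratios were Cy5 over Cy3, the gap divided by 2 would be the fru P1 effect and these 1940 probes its calls, 25 of the 64 among them.

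**Figure D4:**
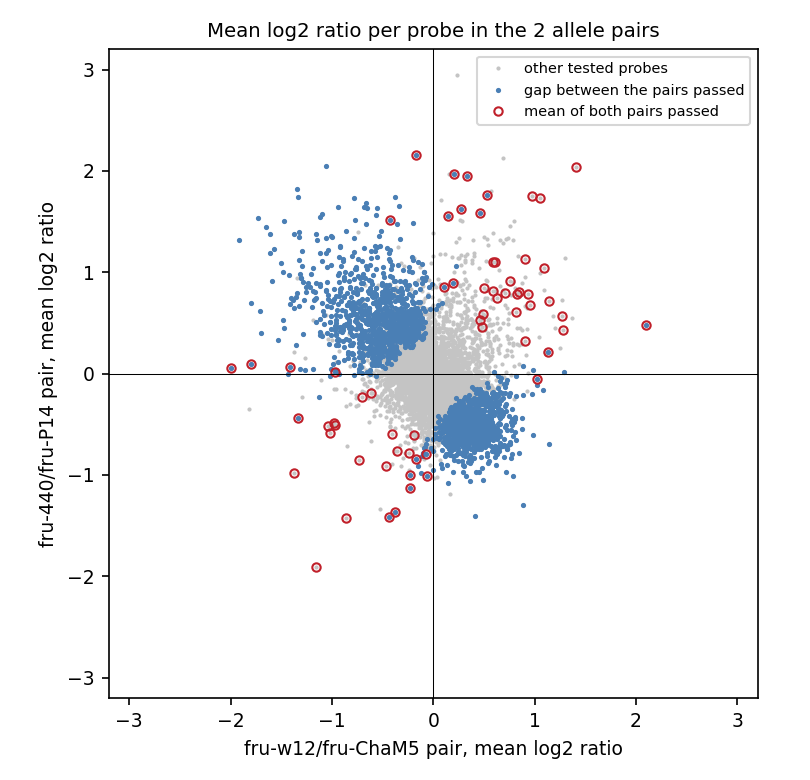
Mean log2 ratio of each of 7461 probes for fru-w12/fru-ChaM5 (horizontal) and fru-440/fru-P14 (vertical). The 1940 probes with a called gap fill the upper left and lower right, and of the 64 probes with a called mean, 57 have both pair means on 1 side of 0.

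The gap was correlated with the dye-orientation term of other CNS and brain arrays. Divided by 2, it varied across 6524 probes with the dye-orientation term of the 4 sex arrays (a description; Pearson's r = 0.70, Spearman's rho = 0.69), and 1600 of 1711 gap calls (93.5%) had its sign, against 76.1% of all probes. The sex arrays compare Canton S females and males. Read as Cy5 over Cy3, their orientation term would be the difference between the sexes, and r = 0.70 would relate the fru P1 effect to it. The correlation of the gap with the dye-orientation terms of the RNAi arrays was r = 0.35 at 0 h and 0.59 in adults. With those of the whole-body arrays, labelled directly and not after amplification, it was 0.05 and 0.06. What these correlations reflect was not tested. When 1 dye term was shared by the fru and the sex arrays, the mean stayed the same by construction, since the dye term cancels in it, and 53 of 6524 probes (0.812%) passed. The pair calls came to 7 (0.107%) for fru-w12/fru-ChaM5 and 13 (0.199%) for fru-440/fru-P14, and the gap to 1 (0.0153%). At an unadjusted p under 0.05 limma gave 600, 622 and 487 probes for these. No probe was called in both pairs in this fit (0 of 6524 by limma), and 20 had an unadjusted p under 0.05 in both with like sign. The dye-adjusted pair values had 1 sign for 48 of 54 mean calls, against 40.8% of all probes. That is a description, since the mean is unchanged and the choice of probes by their mean itself favours 1 sign. The SE of a pair value was larger in this fit (median 0.219 against 0.163 for fru-w12/fru-ChaM5). Among called probes the values were also smaller. The median size went from 0.66 to 0.30 for the 578 fru-w12/fru-ChaM5 calls that could be tested and from 0.60 to 0.28 for the 1053 of fru-440/fru-P14. These probes were chosen for large values in the first fit, and that choice itself favours such a fall. Over all 6524 probes the medians went from 0.21 to 0.19 and from 0.26 to 0.20. DAC006P21, whose sex dye term was -0.99, went from a gap of -3.23 to -1.25 ± 0.609 (SE, limma adjusted p = 0.668). DAC041G05, with the most negative gap, could not be tested in this fit, which needed values on at least 3 sex arrays. How far the dye term of the sex arrays holds for the fru arrays was not tested.

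**Figure D5:**
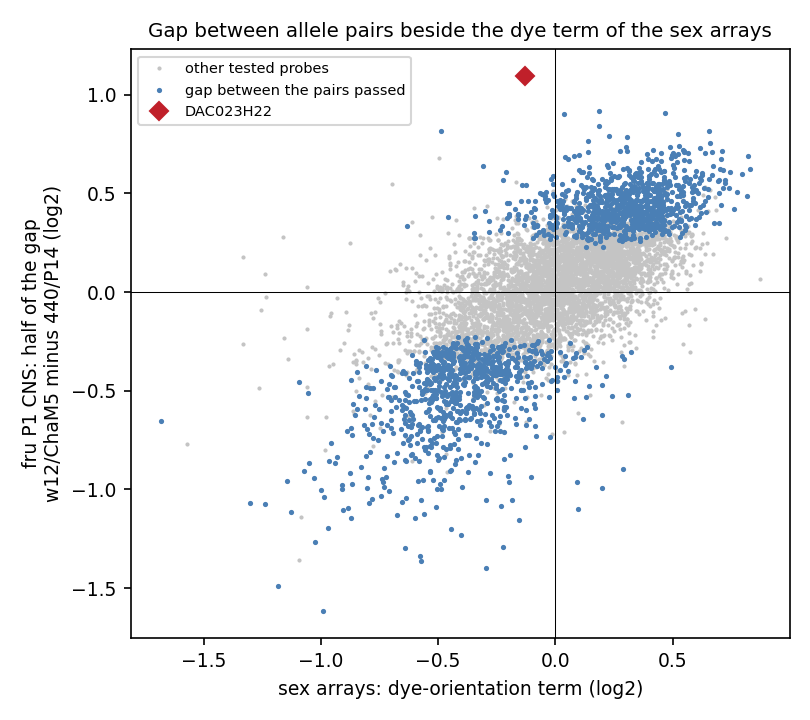
Gap between the allele pairs divided by 2 (vertical, log2) against the dye-orientation term of the 4 sex arrays (horizontal, log2) for 6524 probes. The points rise together (Pearson's r = 0.70), and DAC023H22, with a dye term of -0.13 and a gap of 2.19 before division, stands apart from them.

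DAC023H22 was the only probe whose gap passed with the shared dye term. It had 0.98, 0.85 and 0.82 on replicates 1 to 3 and -0.85, -1.88 and -1.18 on replicates 4 to 6, so the pairs lay on opposite sides of 0. On the sex arrays it stood at 0.13, 0.04, 0.53 and 0.18. Its gap was 2.45 ± 0.347 log2 units in the shared fit (SE; limma adjusted p = 0.0243). In the whole body, where each pair holds both dye orientations, it was again positive for fru-w12/fru-ChaM5 (0.92, 0.69, 0.55 and 0.72) and negative for fru-440/fru-P14 (-0.69, -1.20 and -1.15, n = 3). The whole-body gap was 1.65 ± 0.151 (SE; limma adjusted p = 0.000781). DAC034F02 also kept its sense, with a whole-body gap of 5.38 ± 0.302 (SE; limma adjusted p = 2.7e-05), although its CNS gap of 1.47 ± 0.43 in the shared fit was not called (SE; limma adjusted p = 0.427). Whether these probes report the fru lesions or the strains of the controls cannot be told apart.

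Over all gap calls the tissues were less alike. Of 1274 gap calls tested in the whole body, 690 had a whole-body gap of like sign (54.2%), close to the 52.2% of all 4592 probes tested in both. The whole-body gap passed for 170 of them (13.3%), against 16.7% of all probes, and 117 of the 170 had the like sign. By pair, probes called positive in fru-440/fru-P14 whole pupae had a CNS median of 0.32 in that pair (n = 133) and those called negative -0.08 (n = 147), beside -0.05 for all probes. Of the first, 40 were called in the CNS, 35 of them positive; of the second 38, 29 of them negative. The share called was 30.1% and 25.9%, against 17.6% of all 4592 probes. In the fru-w12/fru-ChaM5 pair the corresponding medians were 0.05 and 0.19 (n = 434 each), and 11.1% and 13.4% were called against 9.41%. There the probes negative in whole pupae had the higher CNS median.

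The probe names place each probe on 1 of 41 source plates of 384 wells. The 64 mean calls came from 33 plates. Plate 37 held the most, 6 of its 178 tested probes (3.37%), among them DAC037L17, and the median plate had 0.571% called. Calls of the gap were found on all 41 plates, at between 16.1% and 36% of the tested probes of a plate.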

How the data were processed

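RNA was measured on spotted 2-channel arrays. Per the labels' protocols, labelled cRNA was made from CNS RNA by amplification. The submitters' processing notes name limma as a tool; its version, the background correction, the normalization and the ratio's direction were not stated in the labels or headers. The deposited table holds log2 ratios on 27 arrays; on 3 of the 4 RNAi arrays at 48 h the deposited ratios have an unknown scale (a score, not log2), and none of these 4 arrays was used. Signal over background was not analysed. Precision is limited by how many arrays there are. The design text calls the biological samples independent; p-values measure the spread between arrays only.

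Probes were tested with limma 3.58.1 under R 4.3.3 (linear model and eBayes, variances moderated over the whole table, two-sided, Benjamini-Hochberg over 7461 probes, threshold 0.05), on 18 CNS and brain arrays (fru P1, sex, RNAi at 0 h and in adults). The RNAi genotype was fru P1-GAL4 with uas-EcRA RNAi. Each experiment had an effect and a dye term. For the pairs, each had its own mean. SEs are moderated and leave out the gap between the pairs. A 32-spot control set was left out. Whole-body fits used 8 arrays, with at least 6 values and both dye orientations in each pair. The code was tested on simulated data. Members, lists and tests were chosen with earlier results of these data known. Named probes are the 2 largest of each sign per comparison among called probes with 1 sign on the arrays compared (for the gap, pairs that do not overlap), and the largest of each sign in the whole-body check. Alternatives covered the arrays fitted, filter, scaling, weights, moderation, dye term and each replicate left out.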

Additional observations from a re-analysis of the deposited data

Results flagged for a closer look

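The allele pairs differed, by a test of the difference itself, for 1940 of 7461 probes; allele pair and dye orientation coincide, so the 2 cannot be told apart in this count. The probes named for the gap were DAC041G05 (gap -3.26 log2 units), DAC006P21 (-3.23), DAC023H22 (2.19) and DAC034F02 (1.84). Among probes named for other reasons, the gap also passed for DAC010H07 (-2.32), DAC003A12 (-2.05), DAC025F14 (1.63) and DAC039L21 (0.90).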

How the results depend on the processing

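No paired analysis was possible because the 2 allele pairs share no replicate number. The mean, with 64 calls, gave 36 in the fit of the 6 arrays alone, 35 with a value required on all 6 arrays, 322 with array weights (replicate 6 weighed 0.343 and replicate 5 2.523), 1940 with ratios read as Cy5 over Cy3, and between 17 and 200 with 1 replicate left out; all 64 kept their sign in these fits wherever tested, the Cy5 over Cy3 reading aside. The fru-w12/fru-ChaM5 pair, with 702, gave 1413 with array weights, 7 with the shared dye term and 53 to 1081 with 1 replicate left out. The fru-440/fru-P14 pair, with 1202, gave 489 with arrays centred and scaled, 2541 with array weights, 13 with the shared dye term and 38 to 1452 with 1 replicate left out. The gap, with 1940, gave 2988 with array weights, 1 with the shared dye term (added after seeing the data) and 1053 to 2424 with 1 replicate left out, the lowest without replicate 4. With 1 replicate left out a probe needed values on 4 arrays, not 5, so more probes were tested; over the same 7461 probes, an alternative added after seeing the data, the ranges were 15 to 107 (32 without replicate 5), 53 to 897 (284 without replicate 1 and 118 without replicate 3), 36 to 1346 (135 without replicate 5) and 1012 to 2288 (1258 without replicate 2). The causes of these moves were not tested. Moderating the variance over the tested probes alone, also added after seeing the data, gave 80, 754, 1250 and 1976. In the whole-body sign check 100% had the like sign beyond 2 log2 units in both pairs, and 46% of the largest 100 in the fru-w12/fru-ChaM5 pair. Of 323 values of named probes under alternatives, 297 kept sign and call, 26 kept the sign but not the call and 0 reversed. The named probes were chosen with 1 sign on the arrays compared, so leaving out a replicate could not reverse them. A change of moderation does not move an estimate, and the shared dye term cannot move a mean. The count of reversals is therefore no check of the signs.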
